A study of Homo sapiens with 6 samples.

Results

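S100 genes encode small calcium-binding proteins, and 10 of the 17064 genes in the expression table of MDA-MB-231 cells were examined here, chosen by name from the family: S100A2, S100A3, S100A4, S100A6, S100A10, S100A11, S100A13, S100A14, S100A16 and S100P. S100A4 was singled out because its level varied between libraries, so its values over the libraries are given as a description without a test. MDA-MB-231 is a human triple-negative breast cancer line derived from a metastatic site. The cells carried either the empty lentiviral vector (vector control, 2 libraries from separate transductions), guides against CDC42BPA (MRCKα KO, 1 library), guides against CDC42BPB (MRCKβ KO, 1 library) or guides against both genes (DKO, 2 libraries made with different guide sets). All cells were transduced and selected without picking clones, so each library is a mixed population, and RNA came from subconfluent cultures. MRCKα and MRCKβ are kinases downstream of the small GTPase Cdc42 that act on myosin and the actin cytoskeleton, and the study asked what their loss changes in these cells.

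S100 proteins work as dimers with a pair of EF-hand loops in each chain. Calcium opens the protein and exposes a surface that grips a partner, such as an annexin, a myosin heavy chain or ezrin. S100A10 is the exception, as it has lost calcium binding and sits permanently on annexin A2. Several family members are also released from cells and bind the receptor RAGE. S100A4, also called metastasin, binds the heavy chain of non-muscle myosin IIA and is known for its link to the spread of breast tumors. In bulk RNA, a smaller share of cells expressing a gene and less RNA per cell cannot be told apart.

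Of the 10 genes, 9 lie on the minus strand of chromosome 1 between positions 151982915 and 153631360, and S100P lies on the plus strand of chromosome 4 from 6693069 to 6697170 (GENCODE v29 on GRCh38, the build named in the submitters' processing notes). S100A10 (151982915 to 151994390) and S100A11 (152032506 to 152047907) sit at one end of this stretch. S100A6 (153534599 to 153536244), S100A4 (153543613 to 153550136), S100A3 (153547329 to 153549372) and S100A2 (153561108 to 153567890) follow each other at its other end, then S100A16 (153606886 to 153613145), S100A14 (153614255 to 153616986) and S100A13 (153618787 to 153631360). The span annotated for S100A4 encloses S100A3, but their exons share no base. S100A13 shares 235 exonic bases with S100A1 on the opposite strand and 536 with the annotated gene AL162258.1 on its own strand. Reads from these bases could also fit the other gene. Whether counting used the strand is not given in the sources used here. Expected counts of all 10 genes, S100A13 among them, were whole numbers in every library, so no split of reads between genes shows in them.

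The promoters of the most variable gene (S100A4), of S100A10 and S100A3, whose levels followed it most closely, and of the steadiest gene (S100A11) are shown for comparison, from the RefSeq table on GRCh38.p14. All 10 genes matched an entry, with 14 annotated start windows in all. Each line gives the 250 bases before the annotated start, 5′ to 3′ on the minus strand of chromosome 1. Capitals mark the motifs searched on both strands, overlapping matches included. The letters searched were TATAAA for the TATA box and CCAAT for the box of that name. The GC box was searched as GGGCGG. The letters for the AP-1 site were TGANTCA, where N is any base.
S100A4 (chr1:153545807-153546056): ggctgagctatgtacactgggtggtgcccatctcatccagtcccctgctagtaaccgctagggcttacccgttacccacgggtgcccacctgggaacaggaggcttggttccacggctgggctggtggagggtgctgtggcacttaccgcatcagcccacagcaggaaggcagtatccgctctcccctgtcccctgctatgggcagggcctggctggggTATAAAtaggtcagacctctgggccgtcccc
S100A10 (chr1:151993860-151994109): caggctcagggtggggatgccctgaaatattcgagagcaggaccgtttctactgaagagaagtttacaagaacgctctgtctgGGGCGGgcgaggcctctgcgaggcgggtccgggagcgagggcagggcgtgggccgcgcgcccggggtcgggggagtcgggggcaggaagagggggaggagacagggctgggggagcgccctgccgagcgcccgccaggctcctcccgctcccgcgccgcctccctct
S100A3 (chr1:153549259-153549508): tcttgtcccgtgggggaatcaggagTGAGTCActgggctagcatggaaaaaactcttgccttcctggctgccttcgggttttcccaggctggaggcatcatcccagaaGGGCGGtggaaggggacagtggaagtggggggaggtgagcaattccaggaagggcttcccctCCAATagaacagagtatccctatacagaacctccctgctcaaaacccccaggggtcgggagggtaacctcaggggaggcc
S100A11 (chr1:152037005-152037254): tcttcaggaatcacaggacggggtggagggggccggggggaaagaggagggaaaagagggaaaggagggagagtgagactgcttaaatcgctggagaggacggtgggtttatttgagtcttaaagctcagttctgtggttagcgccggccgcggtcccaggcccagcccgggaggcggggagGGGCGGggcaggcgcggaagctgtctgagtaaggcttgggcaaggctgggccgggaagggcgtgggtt
The S100A4 promoter held a TATA box whose first base lay 31 bases before the start, no GC box and 7 CG pairs. The S100A10 promoter held no TATA box, 1 GC box and 24 CG pairs. S100A3 had 1 GC box, 1 CCAAT box and 1 AP-1 site, and S100A11 had 1 GC box and 15 CG pairs. Among the 35116 windows of all genes, 10.7% held a TATA box, 32% a CCAAT box, 42.6% a GC box and 6.57% an AP-1 site, with a median of 11 CG pairs. Of the 14 windows of the 10 genes, 3 held a TATA box (S100A4, S100A13 and S100P), 3 a CCAAT box and 6 a GC box. An AP-1 site was in 2 (S100A2 and S100A3). Counted by gene the numbers were the same, out of 10, but the shares over all genes count windows. A match is a description of the letters and not a bound site.

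The libraries were alike in depth, with 10349898 to 10657857 expected counts each, which are estimated reads per gene. FPKM values correct these reads for the length of the transcript and the size of the library, and are the scale on which genes are compared here. Between the vector and DKO groups, 13123 genes could be tested with edgeR's quasi-likelihood test. None had a Benjamini-Hochberg adjusted p under 0.05 (percent called: 0), 313 genes (2.39%) had an unadjusted p under 0.05, and DESeq2's Wald test called 4. The RNA of the targeted genes was present in every library, with 23.3 to 36.4 FPKM for CDC42BPA and 23.4 to 30.3 FPKM for CDC42BPB. CDC42BPB was lowest in the DKO libraries (23.42 and 23.47 FPKM, against 30.28 and 29.11 in vector). CDC42BPA in DKO (28.31 and 26.06 FPKM) lay between the vector libraries (36.43 and 23.32). RNA level alone thus leaves the labels unchecked, but the paper reports by immunoblot an efficient loss of both proteins in these cells. Of the markers of a mesenchymal-like breast cancer line, VIM was at 1532 to 2053 FPKM. The luminal or epithelial label was met by KRT8 and KRT18 (138 to 220.1 and 153 to 189 FPKM) but hardly by CDH1 (0.25 to 0.64 FPKM) or EPCAM (0.73 to 2.62 FPKM). Of the same list, ERBB2 stood at 13.23 to 16.15 FPKM and GATA3 at 2.59 to 4.18 FPKM. ESR1 (0.53 to 0.87 FPKM) and PGR (0.01 to 0.03 FPKM) were low. The summed level of the listed markers was 0.96 to 1.94 FPKM for endothelium (3 of 3 above 0), 2.25 to 4.51 FPKM for fibroblasts (5 of 5 above 0) and 68.4 to 98.9 FPKM for leukocytes (4 of 4 above 0), of which CD68 made up 66.7 to 98.5 FPKM and PTPRC 0.28 to 1.24 FPKM. CD3E, which defines T cells, had 1 count in vector 2 and was at 0 elsewhere. The endothelial genes VWF and CDH5 stayed at or under 0.07 FPKM, while PECAM1, of the same list, stood at 0.93 to 1.88 FPKM.

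The S100 genes spanned the whole range of expression in MDA-MB-231 cells. S100A6, also called calcyclin, was the fourth most abundant gene of the table by mean FPKM, with 2253 and 1998 FPKM for the vector libraries, 1694 for MRCKα KO, 2181 for MRCKβ KO, and 1633 and 1496 for the DKO libraries. S100A11, the partner of annexin A1, stood at 689 to 809 FPKM and ranked 60. S100A10 stood at 239 to 416 FPKM and ranked 152. These 3 genes kept their order in every library, and their ranges did not overlap. S100A4 ranged from 43.7 to 284 FPKM and overlapped S100A10 above it and S100A16 (83.4 to 113 FPKM) and S100A13 (42.0 to 63.2 FPKM) below it. S100A3 (9.75 to 23.2 FPKM) and S100A2 (8.34 to 14.9 FPKM) overlapped in range, with S100A3 above S100A2 in each of the 6 libraries. S100P, a ligand of RAGE and partner of ezrin, was low with 0.8 to 3.12 FPKM, from 4 to 16 counts.

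**Figure D1:**
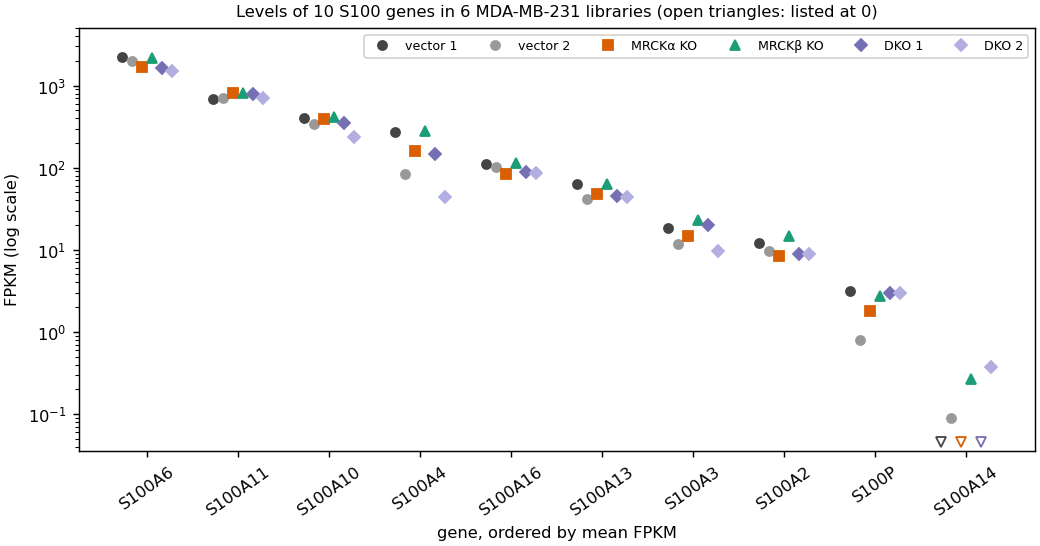
FPKM (log axis) of the 10 S100 genes, ordered by mean, with 1 point per library and open triangles where a library lists the gene at 0. S100A6 lies between 1496 and 2253 FPKM in all 6 libraries, and S100A4 is the abundant gene whose points lie farthest apart, from 43.7 to 284 FPKM.

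S100A14, a family member of epithelial cells, was close to the limit of detection. It had 0 and 1 counts for the vector libraries, 0 for MRCKα KO, 3 for MRCKβ KO, and 0 and 4 for the DKO libraries, and was the single gene of the 10 that did not pass the filter on low counts. A count of 0 allows up to 3 counts at this depth, so no difference was detectable for it. Together the 10 genes took 0.165% to 0.242% of the counts of a library. The share was 0.241% and 0.206% for the vector libraries, 0.200% for MRCKα KO and 0.242% for MRCKβ KO. For the DKO libraries it was 0.193% and 0.165%. This sum includes S100A4, which was singled out for its variation. S100A6 alone gave 52.7% to 60.6% of the summed FPKM of the family.

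S100A4 varied most. Its FPKM was 273 for vector 1 and 83.4 for vector 2, 161 for MRCKα KO, 284 for MRCKβ KO, 147 for DKO 1 and 43.7 for DKO 2. The highest library was MRCKβ KO, closely followed by vector 1, and the lowest was DKO 2, and the replicates of vector, like those of DKO, lay more than 3-fold apart. Vector 1 held 1423 counts and vector 2 421 counts, a ratio per total of 3.28 (exact 95% interval 2.94 to 3.67). DKO 1 held 753 counts and DKO 2 224 counts, a ratio of 3.38 (exact 95% interval 2.91 to 3.94). These intervals cover counting error only and compare libraries, not conditions. The SD of its log2 CPM (counts scaled to the library total by TMM) over the 6 libraries was 1.04, against a median of 0.145 over the 8940 genes with a mean of at least 5 FPKM, of which 99.8% varied less. Of the cell markers checked, some were higher and some lower in vector 2 and DKO 2, the libraries with the least S100A4. VIM stood at 2053 FPKM in vector 2 and 1887 in DKO 2, against 1532 to 1641 in the other 4 libraries, and CD44 (203 and 178 FPKM) and AXL (367 and 284 FPKM) were also highest there. CAV1, of the same mesenchymal list, was lowest there (178 and 166 FPKM against 195 to 281), and LGALS1 (594 and 546 FPKM) lay within the range of the others (504 to 604 FPKM). The summed level of these 5 markers, most of it VIM, was 3395 FPKM in vector 2 and 3061 in DKO 2, against 2619 to 2819 in the others. Among the leukocyte markers CD68 was highest there (98.5 and 91.1 FPKM against 66.7 to 82.0), while PTPRC (0.28 and 0.29 FPKM against 0.48 to 1.24) and CD14 (0.13 and 0.31 FPKM against 0.41 to 1.23) were lowest. The sum of the 8 luminal markers was 311 FPKM in DKO 2 and 358 to 419.5 FPKM in the other libraries. The part of these differences in the level of S100A4 was not tested.

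In the fit of DKO against vector, the log2 change of S100A4 was -0.92 with a standard error of 0.69, and the groups overlapped. The value was 0.18 without vector 1, -1.53 without vector 2, -2.06 without DKO 1 and -0.29 without DKO 2. Its direction thus depended on which vector library was used. In the single knockouts, the log2 ratio of FPKM to the mean of the vector libraries was -0.15 in MRCKα KO and 0.67 in MRCKβ KO. MRCKα KO lay between the vector libraries and MRCKβ KO just above vector 1. Against vector 2 alone the log2 ratio was 0.95 for MRCKα KO and 1.77 for MRCKβ KO, and against vector 1 alone it was -0.76 for MRCKα KO.

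**Figure D2:**
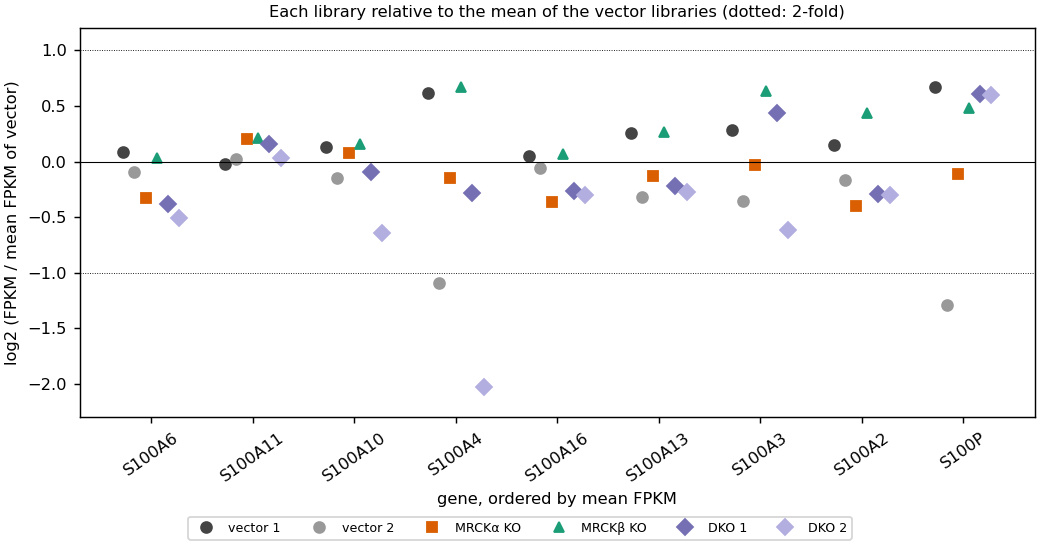
Log2 ratio of each library's FPKM to the mean FPKM of the vector libraries for 9 S100 genes (S100A14 is left out because some libraries list it at 0), 1 point per library, dotted lines at 2-fold. S100A4 in vector 2 and DKO 2 and S100P in vector 2 are the points beyond 2-fold, and for S100A6, S100A16 and S100A2 the MRCKα KO and DKO points lie below those of vector and MRCKβ KO.

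Other S100 genes followed S100A4 over the 6 libraries to different degrees, which is described here as Pearson's r of log2 CPM without a p, over libraries that share the controls. S100A10 had the same order of libraries as S100A4 (r = 0.94, Spearman's rank correlation = 1), but with far smaller steps. Its FPKM was 409 and 338 for the vector libraries, 394 for MRCKα KO, 416 for MRCKβ KO, and 349.9 and 239 for the DKO libraries. S100A3, a neighbor of S100A4 known from the hair cuticle, also followed it (r = 0.91), with 18.2 and 11.7 FPKM for the vector libraries, 14.6 for MRCKα KO, 23.2 for MRCKβ KO, and 20.3 and 9.75 for the DKO libraries. The gap between the DKO libraries was 1.06 on the log2 scale for S100A3 and 1.77 for S100A4, larger than in 99.3% and 99.8% of the genes with a mean of at least 5 FPKM. S100A13, which takes part in the release of FGF1, reached r = 0.79, while S100A11 (r = 0.42) and S100P (r = 0.29) did not share the pattern closely. The median r of the 8 other S100 genes was 0.681, with 2 of 8 above 0.8, beside a median of -0.0154 and 8.75% of the 13763 genes passing the filter.

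By likeness alone, 6 genes outside the family came closest to S100A4 among 145 genes with a mean of at least 5 FPKM and at least 0.5 times its SD. They were PRSS23 (r = 0.99), a secreted serine protease, MSMO1 (r = 0.99), an enzyme of cholesterol synthesis, LPIN2 (r = 0.98), a phosphatidate phosphatase, LAPTM5 (r = 0.98), a lysosomal membrane protein, EEF1A2 (r = 0.98), a translation elongation factor, and INHBB (r = 0.97), an activin subunit. PRSS23 stood at 68.8 and 39.5 FPKM for the vector libraries, 58.9 for MRCKα KO, 81.5 for MRCKβ KO, and 54.8 and 28.0 for the DKO libraries. PRSS23 and EEF1A2 had the same order of libraries as S100A4. The 3 genes least like it were BIRC3 (r = -0.93), an inhibitor of cell death induced by NF-κB, KRTAP2-3 (r = -0.89) and ID3 (r = -0.88), an inhibitor of DNA binding by basic helix-loop-helix factors. ID3 stood at 2.43 and 10.2 FPKM in the vector libraries and at 3.64 and 7.71 FPKM in the DKO libraries, higher in vector 2 and DKO 2, where S100A4 was low.

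Apart from S100A4, 8 S100 genes were tested between DKO and vector. In edgeR's quasi-likelihood test 0 of 8 were called at an adjusted p under 0.05 (all genes: 0%), and 2 of 8 had an unadjusted p under 0.05, S100A6 and S100A16, both lower in DKO (all genes, lower: 1.02%, higher: 1.36%). The counts of S100A6 were 13358 and 11303 in vector and 9233 and 8580 in DKO, so the groups did not overlap. The edgeR fit put it at -0.49 on the log2 scale with a standard error of 0.13 (unadjusted p = 0.00939 and adjusted p = 0.9996). S100A16, a broadly expressed member of the family, stood at 111 and 103 FPKM in vector and at 89.3 and 87.1 FPKM in DKO, again without overlap. Its edgeR estimate was -0.29 on the log2 scale with a standard error of 0.12 (unadjusted p = 0.047 and adjusted p = 0.9996). Leaving out 1 library at a time gave -0.58 to -0.39 for S100A6 and -0.35 to -0.23 for S100A16.

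The estimates of the other tested genes were smaller or had a wider error. The log2 fold change was -0.36 for S100A10 (standard error 0.21), -0.31 for S100A2 (standard error 0.25), -0.21 for S100A13 (standard error 0.21), -0.01 for S100A3 (standard error 0.41), 0.08 for S100A11 (standard error 0.12) and 0.57 for S100P (standard error 0.71). The adjusted p was 0.9996 for each of them in edgeR's test. S100P had 16 and 4 counts in vector and 15 in each DKO library, and its value became 1.83 without vector 1 and -0.087 without vector 2. S100A3 came to 0.34 without vector 1 and to 0.42 without DKO 2, and S100A13 to 0.11 without vector 1. In FPKM, S100A6, S100A16 and S100A2 lay below both vector libraries in both DKO libraries (3 of 8, all genes: 12.2%) and S100A11 above both (1 of 8, all genes: 17%). The 3 lower genes moved together over all 6 libraries and are not 3 separate cases. Pearson's r of log2 CPM was 0.95 for S100A6 with S100A16, 0.91 for S100A2 with S100A16 and 0.84 for S100A2 with S100A6. The median log2 fold change of the 8 genes was -0.25, with 6 of 8 below 0, beside -0.0024 and 50.7% over all genes tested.

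MRCKα KO and MRCKβ KO are single libraries, and what is given for them is a comparison of libraries with no p. In MRCKα KO, 0 of the 7 S100 genes left by the fold rule passed 2-fold (all genes: 1.55%), and in MRCKβ KO 0 of 7 did (all genes: 0.88%). The rule drops genes whose replicates differ by over 2-fold, which removed S100A4, S100P and S100A14. It also drops genes under a mean of 1 FPKM, a limit set here that S100A14 did not reach either. In DKO the rule also removed S100A3 and left 0 of 6 past 2-fold (all genes: 0.43%, lower: 0.152%). In MRCKα KO, S100A6, S100A16 and S100A2 lay below both vector libraries (3 of 8, all genes: 26.7%) and S100A11 above both (1 of 8, all genes: 32.9%). The 3 lower genes are again not separate cases, as they moved together over the libraries. In MRCKβ KO, 6 of 8 genes lay above both vector libraries (all genes: 30.4%), namely S100A2, S100A3, S100A10, S100A11, S100A13 and S100A16, and 0 of 8 lay below both (all genes: 28.8%). The largest of these log2 ratios in MRCKβ KO was 0.64 for S100A3, followed by 0.44 for S100A2, and the others were at most 0.27. Against vector 1 alone, the higher of the vector libraries for these 3 genes, the log2 ratio was only 0.025 for S100A10, 0.010 for S100A13 and 0.017 for S100A16. The 3 comparisons share the vector libraries, so their values are set side by side and not counted as separate evidence.

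Between the single knockouts, S100A2 was 1.78-fold higher in MRCKβ KO than in MRCKα KO (150 against 82 counts, exact 95% interval of the ratio per total 1.35 to 2.36). The ratio per total was 1.34 for S100A16 (interval 1.24 to 1.46) and 1.31 for S100A6 (interval 1.28 to 1.35), but 1.00 for S100A11 (interval 0.962 to 1.04). These intervals again cover counting error only. S100A6, S100A16 and S100A2 were thus lower in the 3 libraries with MRCKα guides than in the 3 without, whether or not MRCKβ was targeted as well.

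Since this separation was noticed in the values, it was examined by adding a fit over all 6 libraries with a term for MRCKα guides and a term for MRCKβ guides. In FPKM, 3 of 8 S100 genes lay lower in all 3 libraries with MRCKα guides (all genes: 4.01%) and 0 of 8 higher (all genes: 6.36%). These were S100A6, S100A16 and S100A2, which moved together over the 6 libraries (Pearson's r of log2 CPM 0.84 to 0.95). They are thus not 3 separate cases. The MRCKα term was -0.45 for S100A6 (log2, standard error 0.10), -0.37 for S100A16 (standard error 0.09) and -0.59 for S100A2 (standard error 0.19). In edgeR's test these 3 of 8 had an unadjusted p under 0.05 (all genes: 3.68%, lower: 2.06%), and none of the 13764 genes tested passed the adjustment, where the adjusted p of these 3 was 0.9994. The genes were chosen on the same libraries, so these values, and the ranges that follow, describe the separation and do not test it. Leaving out each library in turn, or changing the scaling or the filter, kept the MRCKα term between -0.50 and -0.40 for S100A6, between -0.39 and -0.34 for S100A16 and between -0.75 and -0.42 for S100A2, whose unadjusted p then rose to as much as 0.213. The MRCKβ term of the 8 genes ranged from -0.14 for S100A10 (standard error 0.19) to 0.58 for S100P (standard error 0.62), with 0 of 8 at an unadjusted p under 0.05 (all genes: 2.04%, lower: 0.923%).

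The other S100 genes of the family were barely expressed. Of 10 listed, 6 were analysed here. S100A5, the neighbor of S100A4, had 11 and 10 counts for the vector libraries, 13 for MRCKα KO, 19 for MRCKβ KO, and 21 and 11 for the DKO libraries, at most 1.78 FPKM. S100Z reached at most 0.84 FPKM and S100G at most 7 counts, in vector 1. S100A1 had 0 counts in both vector libraries and at most 4 elsewhere, while S100A9, a protein of inflammation and myeloid cells, had 2 counts in DKO 1 and S100B 1 count in MRCKβ KO. S100A7, S100A7A, S100A8 and S100A12 were not analysed here. Only S100A5 and S100Z could be tested in DKO, and neither had an unadjusted p under 0.05. The fold rule left 1 gene of this list, S100A5. It was past 2-fold and higher in MRCKβ KO (log2 ratio 1.16, all genes, higher: 0.467%), from 19 counts. In MRCKα KO (0.47) and in DKO (0.69) it was not past 2-fold. Most of the genes between S100A11 and the S100A6 end of the chromosome 1 stretch belong to the epidermal differentiation program. Those analysed here were low as well. The annotation lists 47 protein-coding genes outside the family within the stretch, and of the 7 analysed here the highest was FLG (filaggrin) with 0.98 to 1.60 FPKM. HRNR (hornerin) had 0.20 to 0.58 FPKM and a log2 fold change of 0.73 in DKO (standard error 0.47, adjusted p = 0.9996 from edgeR).

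Partners of the S100 proteins were mostly abundant, and none passed the test. ANXA2, the partner of S100A10, stood at 1207 to 1449 FPKM, and ANXA1, the partner of S100A11, at 409 to 535 FPKM. MYH9, the myosin heavy chain that S100A4 binds, stood at 126 to 155 FPKM with a log2 fold change of -0.01 in DKO (standard error 0.12), so it did not share the spread of S100A4. CACYBP, which binds S100A6, had a log2 fold change of 0.11 (standard error 0.13), EZR 0.04 (standard error 0.11) and FGF1 0.21 (standard error 0.31). AGER, which encodes RAGE, was low, with 1.04 and 1.34 FPKM for the vector libraries, 0.47 for MRCKα KO, 0.65 for MRCKβ KO, and 0.76 and 0.99 for the DKO libraries. The partners with the largest fitted values in DKO were SYT1 (0.53, standard error 0.34), AGER (-0.47, standard error 0.49) and PLAU, the urokinase gene (-0.40, standard error 0.32). Of 24 tested partners, 0 had an adjusted or an unadjusted p under 0.05 in edgeR's test, with 13 lower and 11 higher in DKO and a median of -0.04. In MRCKα KO 1 of the 22 partners left by the fold rule, AGER, was past 2-fold and lower (all genes, lower: 0.836%), from 7.13 expected counts. In MRCKβ KO and in DKO 0 of 22 were past 2-fold.

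The other EF-hand genes bind calcium outside the S100 family. Of 28 listed, 26 were tested, 0 had an adjusted or an unadjusted p under 0.05 in edgeR's test, and 21 were lower and 5 higher in DKO with a median log2 fold change of -0.08 (all genes: 50.7% lower, 2.39% with an unadjusted p under 0.05). In MRCKα KO 1 of the 26 left by the fold rule, RCN3, named after its values were seen, was past 2-fold and higher (all genes, higher: 0.713%). The largest fitted values in DKO were ACTN1 (α-actinin, 0.30, standard error 0.27), CAPN2 (calpain, -0.29, standard error 0.25) and NUCB1 (nucleobindin, -0.27, standard error 0.13). ACTN1 stood at 259 and 277 FPKM in the vector libraries and at 236 and 433 FPKM in the DKO libraries, so its groups overlapped.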

How the data were processed

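RNA of 6 MDA-MB-231 libraries was sequenced by BGI on the BGISEQ-500 as single-end reads. The submitters' processing notes name HISAT, Bowtie2 and RSEM and the build GRCh38.p11, without versions. The authors deposited expected counts (reads per gene as RSEM estimates them, not normalized) and FPKM, which BGI scaled by transcript length and library total and rounded to 2 decimals. Deposited transcript lengths were read only to describe the genes.

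For DKO against vector, expected counts were rounded, filtered with filterByExpr, normalized by TMM and tested with edgeR 4.0.16 (glmQLFit, glmQLFTest, Benjamini-Hochberg, threshold 0.05). Alternatives used DESeq2 1.42.0 and limma 3.58.1, the latter on log2(FPKM + 0.1) and log2(FPKM + 1). The edgeR fit was checked on simulated data. The fold rule (2-fold, without genes whose replicates lie further apart) followed the study's methods, and the limit of a mean of 1 FPKM in either group was set here. Exact 95% intervals and the limit of 3 counts cover counting error only. The S100 genes and the lists were chosen with earlier results of these data known. Genes named are the 10 S100 genes, the targeted genes, the other family genes, chosen partners, the 3 largest changes of each list and the genes most and least like S100A4. The values of 1 partner gene are not reported here. Vector replicates are separate transductions, DKO replicates separate guide sets, and which guides belong to which library is not given in the sources used here.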

Additional observations from a re-analysis of the deposited data

How the results depend on the processing

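No tested S100 gene was called under any alternative. Over all genes, the number called in DKO was 0 to 5 on leaving out 1 library, 4 with DESeq2 and, with the replicate block, 5, none of them an S100 gene. The labels do not say whether a replicate number marks a shared batch. Over 13123 genes, the log2 difference between the vector libraries (1 minus 2) correlated at 0.26 with that between the DKO libraries. With the block, S100A4 kept its log2 difference (-0.93) and its standard error was 0.12 in place of 0.69. The block takes up the gaps between the replicates, the variation for which S100A4 was singled out. The smaller error is therefore no test of DKO against vector. Leaving out 1 library turned the sign for S100A4 (0.18 without vector 1) and for 3 tested genes in DKO, with a range of -0.64 to 0.42 for S100A3 (above 0 without vector 1 or DKO 2), -0.47 to 0.11 for S100A13 (above 0 without vector 1) and -0.087 to 1.83 for S100P (below 0 without vector 2). The cause was not tested. The genes past 2-fold numbered 176, 100 and 48 in MRCKα KO, MRCKβ KO and DKO. With a pseudocount of 1 they were 45, 11 and 10, without an FPKM filter 1150, 1010 and 376, at 5 FPKM 35, 12 and 11, and without the replicate filter 299, 211 and 156. Leaving out 1 library gave 401 to 548, 221 to 618 and 120 to 225. Leaving out 1 library also gave 0 to 1, 0 to 2 and 0 to 1 S100 genes past 2-fold. They were S100P, and in MRCKβ KO also S100A4, both only without vector 1. A group left with 1 library has no replicates to compare, so the replicate filter no longer acts on it. Without a vector library, 9 S100 genes in place of 7 were left in each single knockout. These numbers thus do not show the effect of the library alone. In the additive fit 0 to 2 genes were called for MRCKα guides on leaving out 1 library, with 2 only without vector 2. Of the 6 genes most like S100A4, 5 remained on the FPKM scale, and 5 were among the 14 genes that reach the sixth value, ties included, by Spearman's rank correlation. Leaving out 1 of 2 libraries assumes that the lone one varies like the others. Genes under 10 counts, S100A14 and in vector 2 and MRCKα KO also S100P, are limited by depth.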
